A study of Homo sapiens with 6 samples.

Results

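The long intergenic noncoding RNAs (lincRNAs) of LN229 cells, a human glioblastoma line, were compared between parental cells (WT, genotype WT-PARP3+/+) and cells in which PARP3 was disrupted with CRISPR/Cas9 (PARP3-/-). The set was selected on its measured level: a gene entered when the deposited table gave its biotype as lincRNA and its mean raw count over the 6 libraries reached 100. This left 247 of the 3490 lincRNA genes among 33841 genes in all. The mean over all libraries does not use the genotype, but the set was chosen with earlier results of these data known. Each genotype had 3 biological replicates, grown under the same standard culture with no treatment. The knockout was made with a nickase and guides to exons 2 and 5 of PARP3, whereas the labels describe the disruption differently, and the sources used here do not say which of the study's PARP3-/- clones was sequenced, so clone and genotype cannot be told apart.

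A lincRNA is transcribed by RNA polymerase II from its own locus between protein-coding genes, and is capped and usually spliced, but it encodes no known protein. Some act in the nucleus as scaffolds, as MALAT1 does in nuclear speckles and NEAT1 in paraspeckles. Others serve mainly as host transcripts whose introns or exons release small nucleolar RNAs (snoRNAs) or microRNAs (miRNAs), and many share a start region with a coding gene that runs the opposite way. PARP3 is a nuclear ADP-ribosyltransferase known for its part in the repair of DNA breaks, which gives the question of the comparison, namely which of these noncoding transcripts differ in its absence.

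The libraries held 29692065 to 46010369 counts on genes. A count of 3, taken as the smallest that can be told from no reads, corresponds to 0.0652 to 0.101 CPM (counts scaled to the normalized library size), which allows for counting error alone. No member came near it, since the lowest count of any member in any library was 30. PARP3 itself, the disrupted gene, had 1273, 942 and 995 counts in WT and 574, 1004 and 736 in PARP3-/-, which overlap (log2 fold change −0.42, adjusted p = 0.307, and 0.0469 with the replicate number as a block, in edgeR). The counts of the targeted gene thus do not check the labels, which give each library its genotype here. Of 9 markers of glioblastoma or glial lines, NES, VIM, SOX2, CD44, EGFR, OLIG2 and S100B were present in all libraries. GFAP, the astrocyte filament, had at most 17 counts and CHI3L1 at most 3. The summed level of 3 macrophage markers was 0.262 to 0.411 CPM in WT and 0.318 to 0.697 CPM in PARP3-/-, and that of 3 endothelial markers was at most 0.822 CPM. Of the markers tested, S100B fell (log2 fold change −1.06, adjusted p = 0.0256) and so did DCN of 3 fibroblast markers (−1.05, adjusted p = 0.00919), beside LUM at 0.44 and COL1A1 at 0.22, and their part in the lincRNA results was not tested.

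The lincRNA counts were concentrated in a few genes. MALAT1 alone carried 38.8% of the counts on the 247 genes, and MALAT1, NEAT1 and NORAD together carried 60.5%. At the other end, 121 members had mean counts of 100 to 200, 110 had 200 to 1000, and 16 had 1000 or more, with a median of 204. Just inside the threshold were AC004816.1 (mean count 100.5) and LINC00654 (101), and just outside it UBAC2-AS1 and AL355482.1 (99.8 each). AL355482.1 had 215, 183 and 196 counts in WT and 2, 3 and 0 in PARP3-/-, so the threshold left out a lincRNA whose counts in the 2 genotypes were far apart.

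Per length, MALAT1 stood highest, at 4832 CPM per kilobase of median transcript length. It was followed on that scale by NEAT1 (1245), LINC00511, NORAD (107), EBLN3P, JPX, SNHG8, MIR4435-2HG, SNHG19 and CYTOR. This order rests on the length used. The median annotated transcript of MALAT1 in the deposited table is 480 bases and that of NEAT1 572 bases, whereas their GENCODE 44 exons cover 10434 and 22767 bases. Per kilobase of GENCODE 44 exons, MALAT1 stood at 222 CPM, NORAD at 105, SNHG19 at 35.4 and NEAT1 at 31.3, and LINC00511 and JPX fell far down the order. NORAD, which binds the PUMILIO proteins, had nearly the same level on both scales (107 and 105 CPM per kilobase), and the place of the rest should be read with that limit.

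The share of all gene counts that fell on the 247 lincRNAs was 0.780%, 0.474% and 0.519% in WT replicates 1, 2 and 3, and 0.761%, 0.481% and 0.530% in PARP3-/- replicates 1, 2 and 3. The means were 0.591% ± 0.165 and 0.591% ± 0.150 (SD, n = 3 each), and a two-sided exact permutation test gave p = 1 where the smallest possible is 0.1. Replicate 1 was the highest in each genotype, and the pairs of equal number lay closer together than the libraries of either genotype. Without WT replicate 1 the difference (PARP3-/- minus WT) was 0.0946 percentage points and without PARP3-/- replicate 1 it was −0.0851. The share of counts on mitochondrial genes was also highest in replicate 1 of both genotypes (0.0618% and 0.0476%, against 0.0295% to 0.0411% in the others), and that on histone genes was lowest there (1.06% and 0.970%, against 1.32% to 1.58%). Whether RNA quality or growth state had a part in the lincRNA share was not tested.

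The lincRNAs as a set lay around no change between the genotypes. Their median log2 fold change (PARP3-/- over WT) was −0.00029, beside −0.0062 over all 17144 tested genes and −0.0026 over tested protein-coding genes. The central 80% of the members lay between −0.33 and 0.42, 124 members were negative and 123 positive, and 6 lay beyond 1 in either direction (2.43%, against 4.40% of all tested genes). The median moved between −0.060 and 0.070 when single libraries were left out, the extremes being without PARP3-/- replicate 1 and without WT replicate 1.

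Single lincRNAs differed. At an adjusted p under 0.05 in edgeR's quasi-likelihood test, 4 members were lower and 5 higher in PARP3-/-, where the same test called 3.33% of all tested genes lower and 1.36% higher. In all 9 the PARP3-/- libraries lay beyond all WT libraries. In bulk RNA of a culture, fewer cells with a transcript and less of it per cell cannot be told apart. The lower calls were at 1.62% of the members, below the background, and the higher calls at 2.02%, above it, which is a description with no test. When a change of over 2-fold and an adjusted p below 0.001 were both asked for, LINC01419 alone was called lower and 0 members higher, with a background of 0.443% and 0.035%. Without an overlap between the genotypes were 18 lower members (7.29%, against 12.0% of all tested genes) and 37 higher members (15%, against 10.8%).

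WT and PARP3-/- libraries of equal number resembled each other most in replicates 1 and 2 but not in replicate 3, and no label states a pairing. A pairing read from the same data was thus used in a second model, which took that number as a block. With it, 23 members were lower and 39 higher, beside 12.5% and 11.8% of all tested genes, which makes 9.31% and 15.8% of the members. All 9 genes above were among these 62. Most were small changes, since 56 of the 62 were under 2-fold in size, and the size ran from 0.23 to 1.73 on the log2 scale. DESeq2 without a block called 7 lower and 14 higher (background 3.84% and 2.09%), all 21 of them also called with the block. Among 11299 tested coding genes with the same minimum mean count of 100, 2.38% were lower and 1.53% higher without the block, 13.3% and 15.2% with it, and 3.88% and 3.27% by DESeq2. With the block, the 15.8% of members that were higher thus lay close to the share of coding genes past the same count limit.

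**Figure D1:**
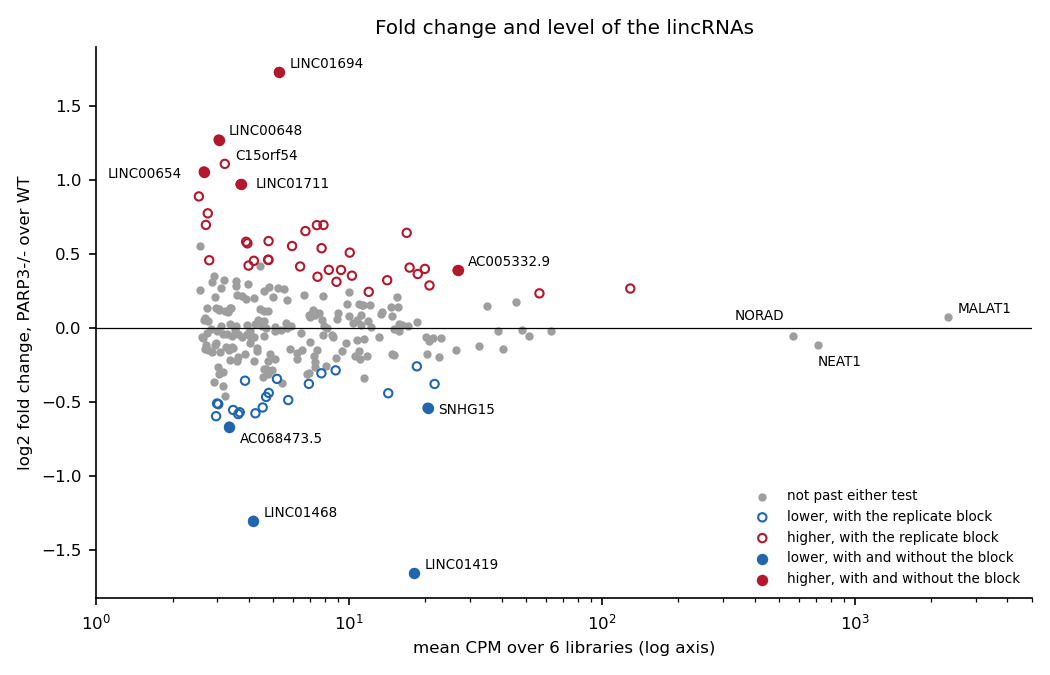
Log2 fold change of the lincRNAs (PARP3-/- over WT, vertical axis) against their mean level in CPM over the 6 libraries (horizontal log axis). Filled colours mark the 4 lower and 5 higher members that passed with and without the replicate block, open circles those that passed with the block alone, and grey points the rest. MALAT1, NEAT1 and NORAD lie at the right near 0.

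LINC01419 had the largest fall among the 4 members called lower. It lies on chromosome 8 from 83403758 to 83408900 (hg38, forward strand), far from any coding gene, with RALYL 773887 bases away and at the limit of detection. Its level was 24.4, 27.8 and 30.1 CPM in WT and 8.80, 7.70 and 9.63 CPM in PARP3-/-, so that every WT library stood well above every PARP3-/- library. The log2 fold change was −1.66 (SE 0.12, adjusted p = 0.000755), and it stayed between −1.74 and −1.57 with single libraries left out, each time past the test.

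LINC01468 (current name LNCAROD, known as an activator of the neighbouring WNT antagonist DKK1) fell next most. It had 6.24, 6.41 and 5.17 CPM in WT and 2.26, 2.47 and 2.49 CPM in PARP3-/-. The groups stood clear of each other, with a log2 fold change of −1.30 (SE 0.14, adjusted p = 0.00376), past the test also without any single library. DKK1, 132832 bases away, had a log2 fold change of −0.32 (SE 0.17), which missed the test (adjusted p = 0.444) and passed it with the block (0.0231).

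AC068473.5, on chromosome 18 from 79677287 to 79679358, is a clone-named lincRNA on the reverse strand. It had 4.41, 3.88 and 4.05 CPM in WT and 2.66, 2.42 and 2.70 CPM in PARP3-/- (log2 fold change −0.67, SE 0.14, adjusted p = 0.0411). The call was the weakest of the 9, and it was lost without each single library in turn (adjusted p 0.0731 to 0.189) and without the filter on low counts (0.0593). SNHG15, the fourth member that fell, is described with the snoRNA hosts below.

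LINC01694 had the largest rise among the 5 members called higher. It lies on chromosome 21 from 45593654 to 45603056 on the forward strand and had 2.57, 2.69 and 2.07 CPM in WT and 7.24, 8.37 and 8.68 CPM in PARP3-/-. The log2 fold change was 1.73 (SE 0.15, adjusted p = 0.00162), between 1.62 and 1.80 with single libraries left out and past the test each time. Its nearest coding gene PCBP3, which encodes a poly(C)-binding protein, lies 40638 bases away and had a log2 fold change of 0.44 (SE 0.16, adjusted p = 0.228, with the block 0.0415).

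LINC00648, on chromosome 14 from 47764954 to 47795092 on the reverse strand, rose from 1.67, 1.76 and 1.90 CPM in WT to 4.78, 3.91 and 4.24 CPM in PARP3-/-. Its log2 fold change of 1.27 (SE 0.15, adjusted p = 0.00486) passed the test without any single library. MDGA2, a neuronal adhesion gene 90000 bases away, had a log2 fold change of 0.47 (SE 0.18, adjusted p = 0.251, with the block 0.0219).

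The other 3 members that rose did so less firmly. LINC00654, on chromosome 20, had 2.00, 1.62 and 1.56 CPM in WT and 3.85, 3.46 and 3.47 CPM in PARP3-/- (log2 fold change 1.06, SE 0.16, adjusted p = 0.0137). It passed without WT replicate 1 or PARP3-/- replicate 1 and missed the test without any of the other libraries (0.0588 to 0.0821). LINC01711, also on chromosome 20, had 2.60, 2.38 and 2.54 CPM in WT and 5.94, 4.83 and 4.0 CPM in PARP3-/- (log2 fold change 0.97, SE 0.18, adjusted p = 0.0285), and it passed without WT replicate 1 (0.0493) or PARP3-/- replicate 3 (0.0419) only. Their nearest coding genes, GPCPD1 and STX16, had log2 fold changes of −0.27 and −0.14, thus of the opposite sign. GPCPD1 missed the test in edgeR (adjusted p = 0.515) and was called lower with the block (0.00976).

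AC005332.9 was the most abundant member that rose. It had 23.5, 23.6 and 22.5 CPM in WT and 31.7, 30.8 and 28.6 CPM in PARP3-/-, a small change with little spread (log2 fold change 0.39, SE 0.08, adjusted p = 0.0361). The call was lost without each single library (adjusted p 0.0514 to 0.183) and without the filter on low counts (0.0785). On the same strand of chromosome 17, 3615 bases further on, lies AC005332.8, with 5.34, 4.65 and 4.46 CPM in WT and 5.94, 7.05 and 8.18 CPM in PARP3-/- (log2 fold change 0.55, SE 0.16, adjusted p = 0.120, with the block 0.0114). Whether the 2 are parts of a single transcript was not tested.

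**Figure D2:**
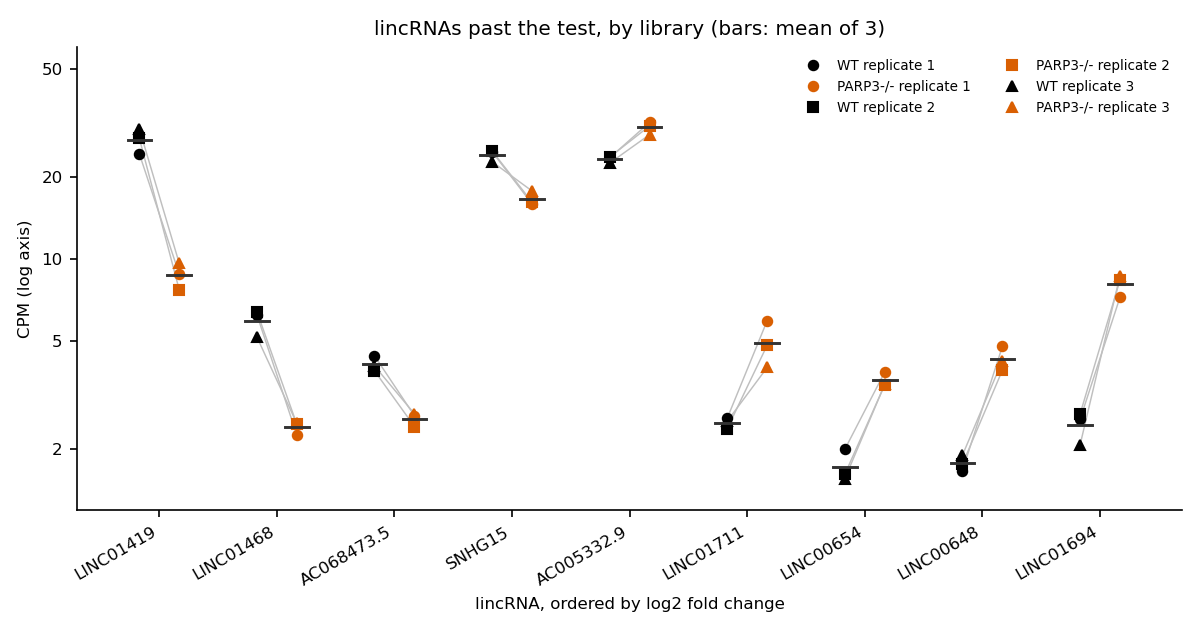
Level in CPM (log axis) of the 9 lincRNAs past the test in each WT (black) and PARP3-/- (orange) library, with symbols for replicates 1 to 3, grey lines joining equal numbers and bars at the means of 3. In each gene the PARP3-/- points lie beyond all WT points, from LINC01419 (log2 fold change −1.66) at the left to LINC01694 (1.73) at the right.

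The snoRNA host genes, spliced transcripts whose introns release the small RNAs that guide the modification of ribosomal RNA, all had negative log2 fold changes. The median of the 7 was −0.29 and the range −0.54 to −0.14. SNHG15 alone passed the test. It had 24.8, 24.9 and 22.8 CPM in WT and 15.9, 16.2 and 17.8 CPM in PARP3-/-, with no overlap (log2 fold change −0.54, SE 0.09, adjusted p = 0.0166). The call was lost without WT replicate 2 (0.0650), WT replicate 3 (0.0611), PARP3-/- replicate 2 (0.101) or PARP3-/- replicate 3 (0.0581).

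With the replicate block SNHG19 and SNHG18 were lower too. SNHG19 had 27.1, 22.6 and 24.0 CPM in WT and 18.0, 19.4 and 19.3 CPM in PARP3-/- (log2 fold change −0.38, SE 0.09, adjusted p = 0.0830, with the block 0.00545), and DESeq2 called it as well (adjusted p = 0.035). SNHG18 had 11.6, 8.15 and 9.36 CPM in WT and 10.1, 6.85 and 6.99 CPM in PARP3-/-, so that the genotypes overlapped and only the pairs separated them (log2 fold change −0.29, adjusted p = 0.587, with the block 0.0352). SNHG25, SNHG9, EPB41L4A-AS1 and SNHG8 passed neither model (log2 fold change −0.31, −0.28, −0.19 and −0.14), and the sign of EPB41L4A-AS1 and SNHG8 turned without WT replicate 1 (0.09 and 0.10). In 5 of the 7 hosts the PARP3-/- library was the lower in each of the 3 pairs, as in 27.2% of all tested genes, and 3 of the 7 were lower with the block, where 12.5% of all tested genes were. The counts are of the host transcripts and say nothing of the snoRNAs themselves.

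The 10 miRNA host genes showed 0 calls in edgeR's test without the block, with 1 at an unadjusted p under 0.05 and 1 called lower by DESeq2, MIR646HG in each case. MIR646HG had 4.30, 4.12 and 3.97 CPM in WT and 2.62, 2.87 and 2.94 CPM in PARP3-/-, without overlap (log2 fold change −0.55, SE 0.13, adjusted p = 0.0668, with the block 0.00909). MIR34AHG, the host of miR-34a, a miRNA induced by p53, had 9.37, 5.89 and 4.80 CPM in WT and 5.91, 4.04 and 4.39 CPM in PARP3-/- (log2 fold change −0.49, SE 0.28, adjusted p = 0.475, with the block 0.0192). The genotypes overlapped in MIR34AHG, and replicate 1 was the highest in each.

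The miRNAs that these transcripts hold are shown to place each host by what it can give rise to. The mature sequences are from RefSeq (GRCh38.p14), matched by position and strand within the host, with the seed (bases 2 to 8), by which a miRNA recognises its targets, in capitals. The hosts of the 2 miRNAs listed at the top were lower with the block, and those of the others passed neither model.
miR-646 (MIR646HG): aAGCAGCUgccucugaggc
miR-34a-5p (MIR34AHG): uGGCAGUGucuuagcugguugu
miR-221-3p (MIR222HG): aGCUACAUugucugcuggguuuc
miR-222-3p (MIR222HG): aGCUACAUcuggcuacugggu
let-7a-5p (MIRLET7BHG): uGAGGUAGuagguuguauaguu
let-7b-5p (MIRLET7BHG): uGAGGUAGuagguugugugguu
miR-146a-5p (MIR3142HG): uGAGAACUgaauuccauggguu
miR-210-3p (MIR210HG): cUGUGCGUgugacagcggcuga

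Some seeds recur within a host. The miR-221 and miR-222 pair of MIR222HG shares GCUACAU, and the let-7a and let-7b pair of MIRLET7BHG shares GAGGUAG, so that each of these hosts carries a family with common targets. MIR222HG had 16.8, 11.8 and 13.0 CPM in WT and 15.6, 13.2 and 17.2 CPM in PARP3-/-, and MIRLET7BHG had 63.5, 38.5 and 42.7 CPM in WT and 59.2, 39.7 and 44.7 CPM in PARP3-/-. Neither differed beyond its spread (log2 fold change 0.14, SE 0.16, and −0.01, SE 0.22). MIR210HG, whose miRNA is a marker of the hypoxic response, had 1.34, 4.48 and 2.68 CPM in WT and 2.66, 3.88 and 4.13 CPM in PARP3-/- (log2 fold change 0.33, SE 0.41), with a spread within WT larger than the difference. The mature miRNAs were not measured in these libraries.

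A class of 10 lincRNAs was listed by name as nuclear or chromatin RNAs: MALAT1, NEAT1, NORAD, FIRRE, FTX, JPX, PVT1, CRNDE, CYTOR and LINC00461. Where each RNA lies in the cell was not measured. Among these 10, 0 passed the test without the block in edgeR or DESeq2, and 0 had an unadjusted p under 0.05 in edgeR. The median log2 fold change was −0.07. MALAT1 had 3394, 1558 and 1829 CPM in WT and 3399, 1766 and 1972 CPM in PARP3-/- (log2 fold change 0.07, SE 0.36). NEAT1 had 1138, 514 and 570 CPM in WT and 1029.9, 455 and 567 CPM in PARP3-/- (log2 fold change −0.11, SE 0.40). For both, the large SE came with replicate 1, which stood far above the others in each genotype. With the block, the SE of MALAT1 was 0.07 and that of NEAT1 0.06, and neither passed (adjusted p = 0.329 and 0.214).

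With the block, FIRRE fell and JPX rose within this class. FIRRE, which anchors chromatin domains in the nucleus, had 7.64, 4.46 and 5.24 CPM in WT and 5.74, 3.75 and 4.21 CPM in PARP3-/- (log2 fold change −0.33, adjusted p = 0.0428 with the block and 0.609 without). JPX, an activator of XIST, had 57.3, 47.0 and 51.3 CPM in WT and 68.0, 55.9 and 59.1 CPM in PARP3-/- (log2 fold change 0.23, adjusted p = 0.00557 with the block and 0.362 without). In each pair FIRRE was lower and JPX higher in PARP3-/-, while the genotypes overlapped.

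**Figure D3:**
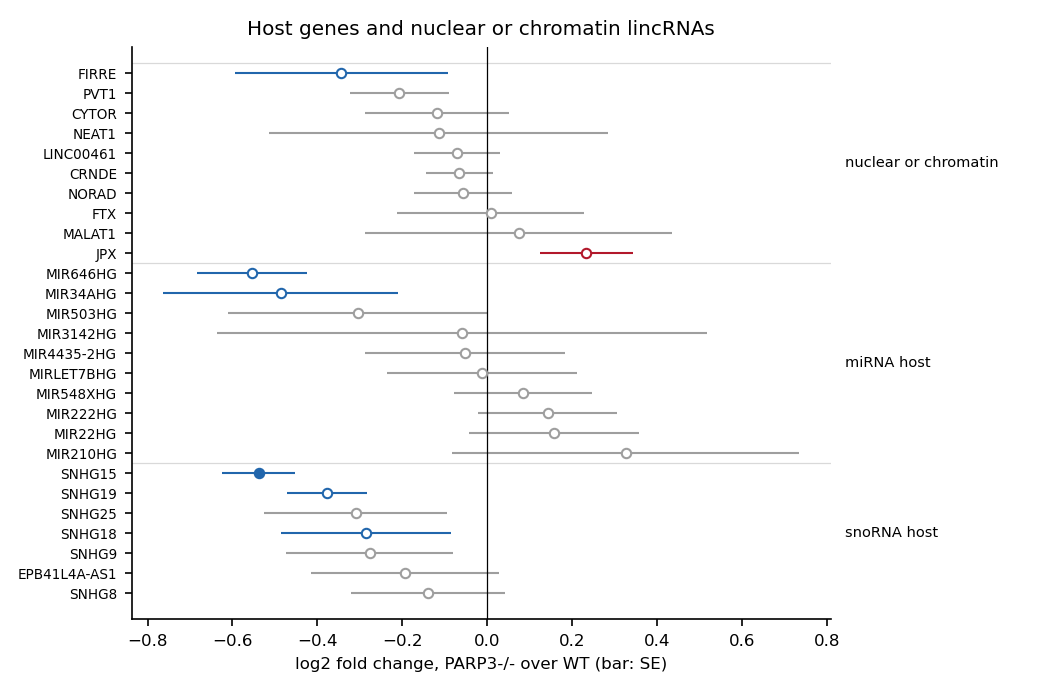
Log2 fold change (PARP3-/- over WT, horizontal axis) with its SE of the snoRNA hosts, miRNA hosts and nuclear or chromatin lincRNAs. The filled point marks SNHG15, which passed without the block, coloured open points those that passed with the block alone, and grey points the rest. All 7 snoRNA hosts lie to the left of 0.

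The remaining members carry a LINC number (72, of which 1 is also in the nuclear class) or mostly a clone-based name. Of the 72, 2 (2.78%) were lower and 4 (5.56%) higher, and with the block 9 (12.5%) and 18 (25.0%). Of 149 others, 1 (0.67%) was lower and 1 (0.67%) higher, and with the block 8 (5.37%) and 20 (13.4%). The background over all tested genes was 3.33% lower and 1.36% higher without the block, and 12.5% and 11.8% with it. Some of the members that passed with the block alone have a described role, and these were chosen for mention after their values were seen. PURPL, a p53-induced lincRNA, had 6.55, 4.69 and 4.39 CPM in WT and 9.03, 6.91 and 8.66 CPM in PARP3-/- (log2 fold change 0.65, SE 0.19, adjusted p = 0.133, with the block 0.00192). LINC00473, which is induced by cyclic AMP, had 17.6, 13.3 and 18.2 CPM in WT and 14.0, 11.5 and 10.8 CPM in PARP3-/- (log2 fold change −0.44, SE 0.16, adjusted p = 0.220, with the block 0.00963). PURPL rose and MIR34AHG fell with the block, although both are described as p53 targets. LINC00511, the most abundant LINC-numbered member, had 128, 111 and 113 CPM in WT and 164, 128 and 131 CPM in PARP3-/- (log2 fold change 0.27, adjusted p = 0.346, with the block 0.00403).

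Many lincRNAs were highest in replicate 1 of both genotypes. Replicate 1 was the highest of its genotype in both WT and PARP3-/- for 110 of the 247 members (44.5%, against 32.5% of all tested genes) and the lowest in both for 55 (22.3%, against 32.3%). The median log2 ratio of replicate 1 to the mean of replicates 2 and 3, computed after adding 0.1 CPM, was 0.15 in WT and 0.11 in PARP3-/-, beside 0.01 and 0.00 over all tested genes. Antisense genes of the same count range were alike in this, with replicate 1 highest for 45.5% of 220.

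For 7 members, replicate 1 was more than 2-fold above the others in both genotypes: NEAT1, MIR3142HG, APTR, DNAJC3-AS1, LINC01583, LINC01239 and AC007405.3. MIR3142HG, the host of miR-146a, had 23.0, 7.01 and 10.0 CPM in WT and 23.0, 6.94 and 8.55 CPM in PARP3-/-, so that its level followed the replicate and not the genotype (log2 fold change −0.06, SE 0.58, and −0.07, SE 0.08 with the block). MALAT1 was close to this group, with log2 ratios of 1.01 in WT and 0.87 in PARP3-/-. In the opposite direction, replicate 1 was more than 2-fold below the others in both genotypes for 2 members (0.81%, against 0.40% of all tested genes). Of these, C15orf54 had 0.822, 3.38 and 1.93 CPM in WT and 1.26, 6.17 and 5.74 CPM in PARP3-/-, and LINC01910 had 2.22, 5.70 and 5.34 CPM in WT and 1.26, 3.82 and 3.79 CPM in PARP3-/-.

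In such members a call was reached with the block alone, which rests on a pairing read from these same data. C15orf54 was the higher in PARP3-/- in each pair, with a log2 fold change of 1.11 and an adjusted p of 0.498, which was 0.00109 with the block. LINC01819 had 8.11, 17.6 and 13.8 CPM in WT and 12.4, 25.8 and 23.4 CPM in PARP3-/- (log2 fold change 0.64, adjusted p = 0.000106 with the block and 0.450 without). Over all members, PARP3-/- was the lower in each pair for 65 (26.3%, against 27.2% of all tested genes) and the higher in each pair for 72 (29.1%, against 27.1%).

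**Figure D4:**
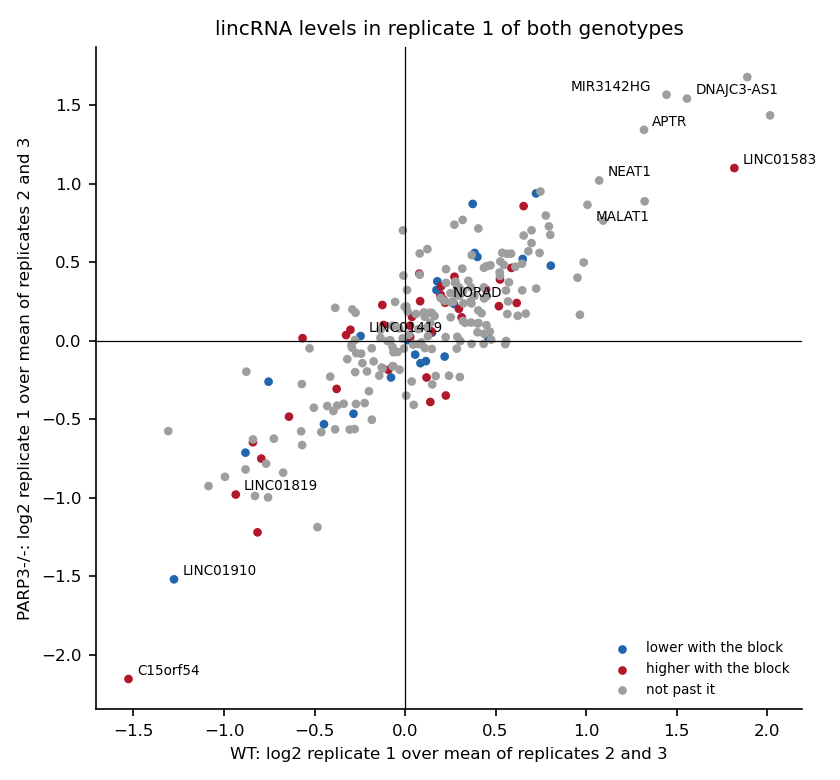
Log2 ratio of replicate 1 to the mean of replicates 2 and 3 for each lincRNA, in WT (horizontal axis) and PARP3-/- (vertical axis), coloured by the call with the replicate block. Members lie along the diagonal, from C15orf54 (down in both genotypes) to MIR3142HG, LINC01583 and NEAT1 (up in both), and more lie above 0 than below.

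A coding gene that was tested lay within 50 kilobases of 166 members, overlapped 32 of them, and in 58 cases started within 1 kilobase on the opposite strand, in the head-to-head arrangement in which a start region serves both directions. Of the neighbours of the 4 called members that had one, 0 were called in edgeR's test without the block or by DESeq2, 2 had an unadjusted p under 0.05 in edgeR, and 3 were called with the block. With the block, 15 of the 166 members were lower, and 9 of their neighbours were lower and 0 higher. Of the 19 that were higher, 4 had a higher and 1 a lower neighbour, the latter being LINC00654 with GPCPD1. Over all 166 pairs, 20 neighbours were lower (12.0%) and 29 higher (17.5%) with the block, beside 12.5% and 11.8% of all tested genes. Across the 166 pairs the log2 fold changes had a Pearson's r of 0.31 and a Spearman's rho of 0.34, and across the 58 head-to-head pairs an r of 0.38, with 33 of the 58 of the same sign. These values are a description, since the points share the same 6 libraries and are not independent.

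HK2, the hexokinase that starts glycolysis, and AC019069.1 have annotated starts 6 bases apart on opposite strands. AC019069.1 had 9.56, 6.46 and 7.44 CPM in WT and 6.07, 5.54 and 6.43 CPM in PARP3-/- (log2 fold change −0.38, SE 0.17, adjusted p = 0.338, with the block 0.0396), and HK2 fell with the block as well (−0.51, SE 0.12, adjusted p = 0.0611, with the block 0.000331). SEMA5A, a guidance semaphorin, starts 125 bases from SNHG18 and had a log2 fold change of −0.76 (SE 0.47). It missed the test without the block (adjusted p = 0.525 in edgeR) and was lower with it (9.37e-05). SRP14-AS1 and SRP14, a protein of the signal recognition particle, whose starts are 123 bases apart, were the head-to-head pair that rose together with the block, at 0.42 and 0.27.

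Other pairs lower with the block were AC068473.5 with CTDP1, a phosphatase of the RNA polymerase II tail (−0.67 and −0.31), CH17-340M24.3 with ATP6AP1, a subunit of the vacuolar proton pump (−0.60 and −0.21), and LINC00473 with PDE10A, an enzyme that breaks down cyclic AMP and cyclic GMP (−0.44 and −0.44). CTDP1, ATP6AP1 and PDE10A missed edgeR's test without the block (adjusted p = 0.369 for ATP6AP1 and 0.352 for PDE10A). LINC01910 and SOCS6, 49940 bases away, had −0.57 and −0.43, and SOCS6 passed the test also without the block (adjusted p = 0.0460). SNHG19 went against its neighbour, with TRAF7, 340 bases from its start, at 0.08. The libraries were strand-specific according to the methods, which do not give the strand setting of the counting. Reads from overlapping genes on opposite strands could be told apart only if they were counted by strand. A signal that reads through from a neighbour on the same strand could not be told apart in either case.

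**Figure D5:**
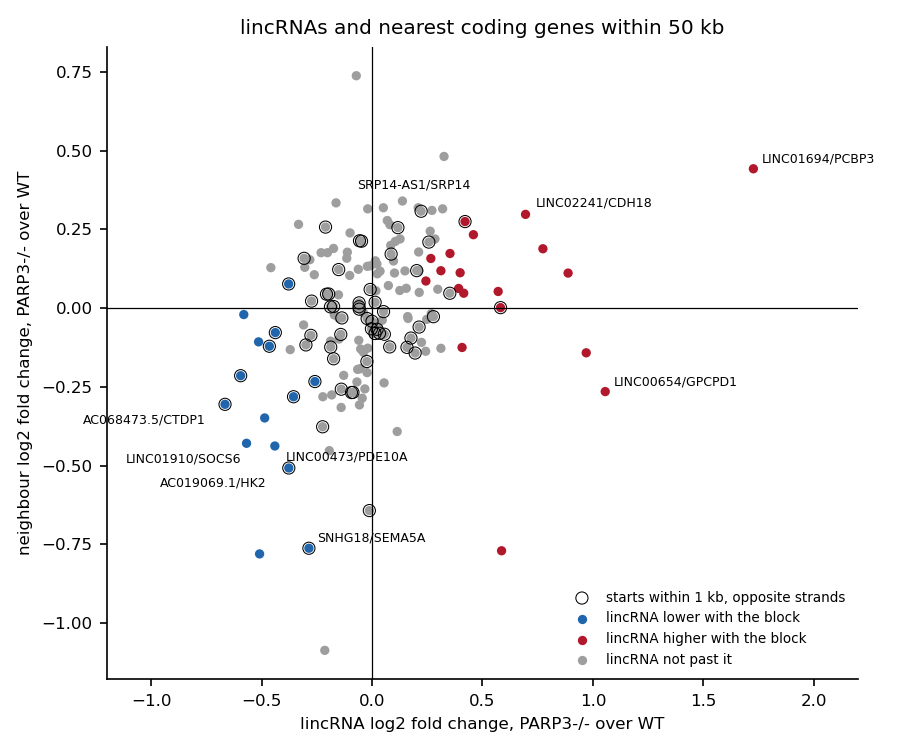
Log2 fold change (PARP3-/- over WT) of each lincRNA (horizontal axis) and of its nearest tested coding gene within 50 kilobases (vertical axis) for 166 pairs, coloured by the call of the lincRNA with the block, with rings around 58 head-to-head pairs. Blue points, the lower lincRNAs, lie mostly below 0 on both axes, and the red points, the higher ones, spread around 0 in the neighbour.

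RefSeq promoter windows (GRCh38.p14, 250 bases before to 50 after the start) were found for 112 members, at most 1 kilobase from the deposited start and on the same strand. The CG dinucleotide, whose clusters mark the promoters of broadly expressed genes, occurred a median of 23 times in them, against 14 over 35116 windows of all genes and 25 in windows of tested coding genes. The median was 26 in 9 members that were lower with the block, 10 in 19 that were higher and 24.5 in the 84 that passed neither way. Fewer than 10 occurred in 9 of the 19 higher members (47.4%), in 3 of the 9 lower (33.3%) and in 18 of the 84 (21.4%), beside 43.6% of all windows and 18.9% of those of tested coding genes. This split was noticed in the data and was not tested. On either strand, CCAAT was present in 45.5% of the members' windows (34.6% of all windows) and TATAAA in 5.36% (11.5%). The motifs were searched as exact matches and do not overlap each other in sequence.

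Windows are shown for members that the results turn on, 5′ to 3′ in the direction of the named gene, with every CG in capitals. LINC01468 (chr10:52470484-52470783, reverse strand), the lower member with a window, holds 1 CG. LINC00654 (chr20:5504547-5504846, reverse strand), called higher, holds 14. C15orf54 (chr15:39250419-39250718, forward strand) holds 2 and had the largest rise with the block among members with fewer than 10. SNHG19 (chr16:2155309-2155608, reverse strand), a snoRNA host, holds 23 and both motifs. The SNHG18 window (chr5:9545950-9546249, forward strand) holds 43, with the start of SEMA5A at base 126 and that of SNHG18 at base 251. The HK2 window (chr2:74833877-74834176, forward strand) holds 38, with the deposited starts of HK2 at base 105 and of AC019069.1 at base 111.
LINC01468: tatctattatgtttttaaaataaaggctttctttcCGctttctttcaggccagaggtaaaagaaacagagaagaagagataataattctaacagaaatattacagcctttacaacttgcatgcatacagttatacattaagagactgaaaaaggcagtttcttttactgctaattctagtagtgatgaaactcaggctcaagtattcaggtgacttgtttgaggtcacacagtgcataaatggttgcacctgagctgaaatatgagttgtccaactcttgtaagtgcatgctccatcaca
LINC00654: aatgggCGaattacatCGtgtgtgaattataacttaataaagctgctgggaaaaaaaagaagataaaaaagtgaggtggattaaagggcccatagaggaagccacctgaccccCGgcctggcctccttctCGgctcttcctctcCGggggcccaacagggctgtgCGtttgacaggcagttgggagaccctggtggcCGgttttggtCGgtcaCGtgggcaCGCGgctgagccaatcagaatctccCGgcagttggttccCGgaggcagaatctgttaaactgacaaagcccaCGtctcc
C15orf54: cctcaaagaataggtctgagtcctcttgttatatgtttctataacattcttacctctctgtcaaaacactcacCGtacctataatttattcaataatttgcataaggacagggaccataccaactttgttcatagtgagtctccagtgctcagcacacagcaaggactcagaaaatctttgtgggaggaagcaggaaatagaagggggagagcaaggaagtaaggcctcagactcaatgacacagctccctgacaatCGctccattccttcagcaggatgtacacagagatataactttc
SNHG19: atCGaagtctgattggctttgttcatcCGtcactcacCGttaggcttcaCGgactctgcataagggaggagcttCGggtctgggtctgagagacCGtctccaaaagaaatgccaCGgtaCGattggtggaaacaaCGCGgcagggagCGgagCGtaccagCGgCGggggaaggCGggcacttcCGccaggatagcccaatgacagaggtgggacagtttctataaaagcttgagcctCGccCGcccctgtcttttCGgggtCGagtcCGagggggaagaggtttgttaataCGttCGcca
SNHG18: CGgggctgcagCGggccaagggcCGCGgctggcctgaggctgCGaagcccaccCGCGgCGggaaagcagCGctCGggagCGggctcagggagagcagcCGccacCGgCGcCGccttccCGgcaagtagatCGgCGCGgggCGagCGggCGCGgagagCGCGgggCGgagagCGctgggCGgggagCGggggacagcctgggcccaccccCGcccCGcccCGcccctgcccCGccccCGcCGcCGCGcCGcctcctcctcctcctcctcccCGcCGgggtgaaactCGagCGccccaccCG
HK2: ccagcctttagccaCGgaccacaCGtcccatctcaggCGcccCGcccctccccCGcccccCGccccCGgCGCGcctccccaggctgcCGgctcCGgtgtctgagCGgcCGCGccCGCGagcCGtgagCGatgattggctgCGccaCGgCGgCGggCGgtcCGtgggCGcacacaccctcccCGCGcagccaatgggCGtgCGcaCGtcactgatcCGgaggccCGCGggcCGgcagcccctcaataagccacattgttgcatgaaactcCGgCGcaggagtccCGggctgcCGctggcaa

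The CG-poor windows of LINC01468 and C15orf54 belong to members that moved in opposite directions, so that the number of CGs in a window did not go with the direction in these 2. Both shared starts, in contrast, lie in windows with many CGs.

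Genes that make, hold or degrade long noncoding RNA form a separate list. All 46 genes of this list, in which SKIV2L2 also stands under its current name MTREX, were in the table and tested, and 0 were called in edgeR's test without the block, in either direction. At an unadjusted p under 0.05 in edgeR 3 were lower and 1 higher, and DESeq2 called 1 lower and 0 higher. With the block, 4 were lower (8.70%) and 1 higher (2.17%), both below the 12.5% and 11.8% of all tested genes. The 4 are among 17 tested genes of the nuclear exosome, which degrades many noncoding transcripts, and its adaptors. They are SKIV2L2, its RNA helicase (log2 fold change −0.37, SE 0.09, adjusted p = 0.0633, with the block 0.000439), and the core subunits EXOSC5 (−0.27), EXOSC7 (−0.26) and EXOSC2 (−0.22). The others of the 17 passed neither model, and the log2 fold changes of all 17 ran from −0.37 to 0.14, with a median of −0.09. SMG5, a factor of nonsense-mediated decay, was the higher one (0.19, with the block 0.0224). Of 8 paraspeckle proteins and 6 nuclear speckle proteins, 0 passed either model, and their log2 fold changes stayed between −0.07 and 0.08. In 5 genes of miRNA processing the range was −0.12 to 0.06, with 0 past either model.

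By chromosome, the members lay on 23 chromosomes, with at most 19 on any of them. Of the 247, 237 were found by identifier in GENCODE 44, on the same chromosome in each case, 122 of them under a changed name. The annotation has since been revised for some: 235 are now listed as lncRNA and 2, BLACAT1 and AC093323.1, as protein-coding. BLACAT1 had a log2 fold change of −0.51 (adjusted p = 0.175, with the block 0.0228), as did LEMD1, which it overlaps (−0.78, with the block 0.0248). The median annotated transcript was 989.5 bases long, against 1035 for tested coding genes.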

How the data were processed

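Total RNA of LN229 cells, WT or PARP3-/-, was depleted of ribosomal RNA and made into stranded libraries according to the methods, whereas the labels name polyA RNA. The deposited values are raw counts per Ensembl gene, which the authors made by trimming (cutadapt 1.10), removal of ribosomal and spike-in reads (Bowtie2 2.2.8), alignment to hg38 (STAR 2.5.3a) and counting in union mode (HTSeq 0.6.1p1), with versions from the submitters' processing notes. Union mode drops reads that overlap more than 1 gene, which lowers the counts of lincRNAs that overlap others on the same strand. A further 12 columns of values per sample, and the columns of the authors' own comparison (fold changes and p-values), were not used.

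Counts were fitted in R 4.3.3 with edgeR 4.0.16 (quasi-likelihood, TMM, filterByExpr with a minimum count of 10) on all genes, with Benjamini-Hochberg adjustment over the 17144 tested and a call at an adjusted p under 0.05. Each SE is the size of the log2 fold change divided by the root of its F. The libraries held 29692065 to 46010369 counts. The labels call the replicates biological, and nothing says what else the libraries of a genotype share. Deviations of same-numbered libraries from their genotype means correlated at 0.676, 0.517 and 0.242, against −0.628 to 0.410 for different numbers. Replicate 3 was not closest to its own number. WT replicate 3 correlated at 0.264 with PARP3-/- replicate 2, and PARP3-/- replicate 3 at 0.410 with WT replicate 2. The numbers were still taken as pairs, and that number was added as a block in a second fit. Replicates of a genotype differed by more than counting noise (chi-square per degree of freedom 4.12 to 105).

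Alternatives were DESeq2 1.42.0, median-of-ratios size factors, no filter, a mean count of at least 50, the block, unadjusted p, a stricter call and each library left out. Added after the data were seen were the length by GENCODE 44 exons, the split of promoters by CG and the coding genes with a mean count of at least 100. The members and lists were chosen with earlier results of these data known. Named lincRNAs were those called with separated groups, the 10 highest per length, the host and nuclear classes and those beside the count threshold, with the nearest coding genes of the called ones. Other names were chosen after their values were seen. Promoters and miRNAs are RefSeq sequences (GRCh38.p14), and the procedure was tested on simulated counts.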

Additional observations from a re-analysis of the deposited data

How the results depend on the processing

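The 4 lower and 5 higher calls depended on the model. DESeq2 called 7 lower and 14 higher, the fit with the replicate block 23 and 39, the strict limits 1 and 0, and an unadjusted p under 0.05 in edgeR 12 and 28. The share of all tested genes at this unadjusted limit was not computed, so no count at that limit in this report can be set against a background. Without single libraries edgeR called 2 to 3 lower and 2 to 7 higher. Other size factors and a mean count of at least 50 changed no call among the named lincRNAs, no filter lost AC068473.5 and AC005332.9, DESeq2 added SNHG19 and MIR646HG, and the replicate block added LINC00511, JPX, SNHG19, SNHG18, MIR646HG, MIR34AHG and FIRRE and turned the sign of MIRLET7BHG (0.0013), which passed neither way. None of the results below that changed sign had passed the test.

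With single libraries left out, the median log2 fold change ran from −0.060 to 0.070, and the difference in the share of counts from −0.0851 to 0.0946 percentage points. The log2 fold change ran from −0.27 to 0.49 for MALAT1, −0.53 to 0.34 for NEAT1, −0.15 to 0.019 for NORAD, −0.14 to 0.086 for EBLN3P, −0.25 to 0.10 for SNHG8, −0.22 to 0.14 for MIR4435-2HG, −0.24 to 0.033 for CYTOR, −0.58 to 0.011 for MIR503HG, −0.35 to 0.088 for EPB41L4A-AS1, −0.0037 to 0.81 for MIR210HG, −0.017 to 0.33 for MIR22HG, −0.042 to 0.23 for MIR548XHG, −0.78 to 0.58 for MIR3142HG, −0.19 to 0.23 for MIRLET7BHG and −0.20 to 0.21 for FTX. Most of these extremes came without replicate 1 of a genotype, and the cause was not tested. With 3 libraries per genotype, changes smaller than the spread between replicates could not be called without the pairing.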
